A study of Homo sapiens with 9 samples.

Results

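The genes described here are the collagens and structural proteins of the extracellular matrix in cultures of MDA-MB-231, a widely used breast cancer line of human origin that grows attached to the dish. The list names 46 genes: collagen chains, microfibril and elastic fibre proteins, cross-linking enzymes, proteoglycans, and adhesive or matricellular proteins. Of these, 45 were measured among 11963 genes on the arrays, through 109 probe sets, and COL12A1 is not analysed here. Affymetrix arrays were hybridised with total RNA from 9 cultures, 3 separate passages of each of 3 lines. The paclitaxel-resistant line was kept in 1 µM verapamil and 7 nM paclitaxel, the docetaxel-resistant line in 1 µM verapamil and 2 nM docetaxel, and the sensitive cells in 1 µM verapamil alone, according to the description of each sample. Verapamil blocks calcium channels and the drug efflux pump P-glycoprotein. The treatment protocol shared by all samples names it for the sensitive cells only, so if the resistant lines had none, verapamil would also differ in both comparisons with sensitive cells. Each resistance is 1 line, so errors and p-values describe the spread among passages and not among separately selected lines. Since sensitive cells had no taxane, drug exposure and selection cannot be told apart.

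Both drugs are taxanes, which bind and stabilise microtubules. Docetaxel carries a tert-butoxycarbonyl group on its side chain where paclitaxel has a benzoyl group, and a free hydroxyl on its ring system where paclitaxel has an acetyl ester. Their concentrations differed, so the values of the lines stand side by side and the difference between the lines is not one between compounds at matched dose. Nothing in the design separates the drug, its concentration and the line.

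The extracellular matrix is the mesh that cells secrete and then hold on to. Fibrillar collagens give it tensile strength, type IV collagen forms the sheet of the basement membrane, and fibrillin microfibrils carry elastin and store latent growth factors. Lysyl oxidases join collagen and elastin chains covalently, and matricellular proteins such as SPARC and tenascin-C alter how cells attach without being load-bearing. In breast tumours most fibrillar matrix is made by stromal fibroblasts, but mesenchymal-like lines such as MDA-MB-231 also make matrix of their own.

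The deposited value of a probe set is an intensity, the brightness of its probes on a linear scale, and intensities of different genes cannot be set against each other because their probes differ. Differences are given on the log2 scale after an offset of 16 was added to each intensity, which shrinks differences of dim genes. A gene was called when limma's Benjamini-Hochberg adjusted p over all genes was below 0.05. Standard errors of differences come from that fit, with n = 3 arrays per group. In bulk RNA, fewer cells expressing a gene and less of its RNA per cell cannot be told apart. Array medians ran from 33.7 to 43.9, and 24.0% to 27.0% of probe sets lay under an intensity of 16, where values hold little order. Between 7 and 11 of the 45 matrix genes lay there on any array. Arrays of 1 group correlated at 0.967 to 0.992 over the 11963 genes after normalization. The resistant lines correlated at 0.964 to 0.980 with each other, and either line with sensitive cells at 0.889 to 0.954.

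In the paclitaxel-resistant line 15 of 45 matrix genes were called against sensitive cells, 5 higher and 10 lower, where 21.6% of all genes were called. The higher ones were COL6A1, COL6A2, LOXL2, SPARC and FSTL1, and the lower ones COL6A3, COL7A1, COL13A1, FN1, TNC, MFAP2, LOX, LTBP2, EFEMP1 and MXRA8. In the docetaxel-resistant line 16 of 45 were called, 6 higher and 10 lower, where 21.0% of all genes were called. The higher ones there were COL4A5, COL4A6, FBN1, LOXL1, SPARC and FSTL1, and the lower ones COL5A1, COL6A3, COL7A1, COL13A1, COL18A1, FN1, FBLN1, EFEMP2, TNC and MFAP2. The median difference of the matrix genes was -0.12 in the paclitaxel-resistant and -0.11 in the docetaxel-resistant line, against -0.02 and -0.05 over all genes. Lower calls took 10 of 45 matrix genes in each line, beside 10.7% of all genes in the paclitaxel-resistant and 10.2% in the docetaxel-resistant line. At least 2-fold calls numbered 7 in the paclitaxel-resistant and 9 in the docetaxel-resistant line, where 6.53% and 6.47% of all genes had one. Both comparisons use the same sensitive arrays. Where single probe sets are described, 18.6%, 17.7% and 1.60% of all probe sets were called in the paclitaxel, docetaxel and between-line comparisons. After normalization, in 19 matrix genes the paclitaxel-resistant arrays did not overlap the sensitive ones, where 34.8% of all genes did not, and in 20 the docetaxel-resistant arrays did not, where 36.8% of all genes did not. Without normalization the docetaxel comparison had 6 higher and 6 lower matrix genes, and 1328 higher and 733 lower calls over all genes, beside 1288 higher and 1222 lower as reported.

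**Figure D1:**
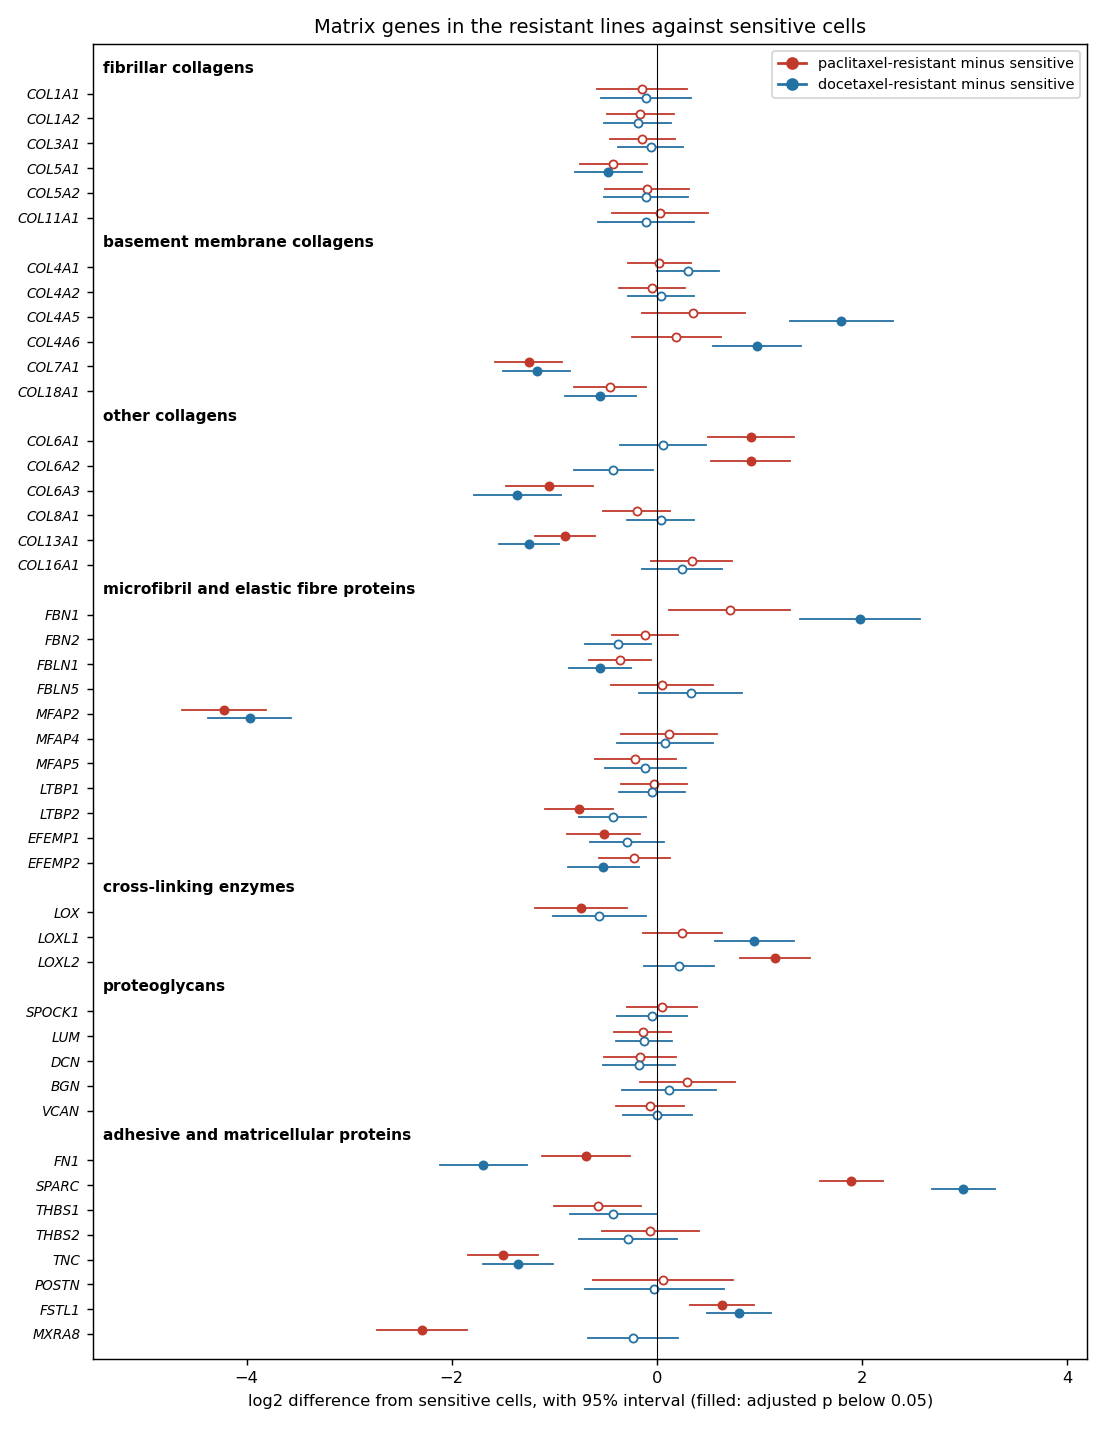
The plot gives, for each of the 45 matrix genes in order of role, the log2 difference of the paclitaxel-resistant (red) and docetaxel-resistant (blue) line from sensitive cells with its 95% interval, filled where the adjusted p was below 0.05. MFAP2 lies far to the left in both lines, SPARC to the right in both, and the proteoglycans and most fibrillar collagens near 0.

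Between the resistant lines 8 of 45 matrix genes were called, 4 higher and 4 lower in the paclitaxel-resistant line, where 1.96% of all genes were called. COL6A1, COL6A2, FN1 and LOXL2 were higher in the paclitaxel-resistant line, and COL4A5, FBN1, SPARC and MXRA8 lower, beside 0.978% of all genes higher and 0.986% lower. At least 2-fold calls numbered 6, where 0.652% of all genes had one, and in 16 matrix genes the arrays of the lines did not overlap, where 20.4% of all genes did not. The median over matrix genes was -0.01, beside 0.02 over all genes. The count fell to 4 or 5 without any 1 of the 6 arrays of these lines, and with an offset of 1 it was 2, COL6A2 and MXRA8. Without normalization all genes split into 53 higher and 90 lower calls in this comparison, beside 117 and 118.

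**Figure D2:**
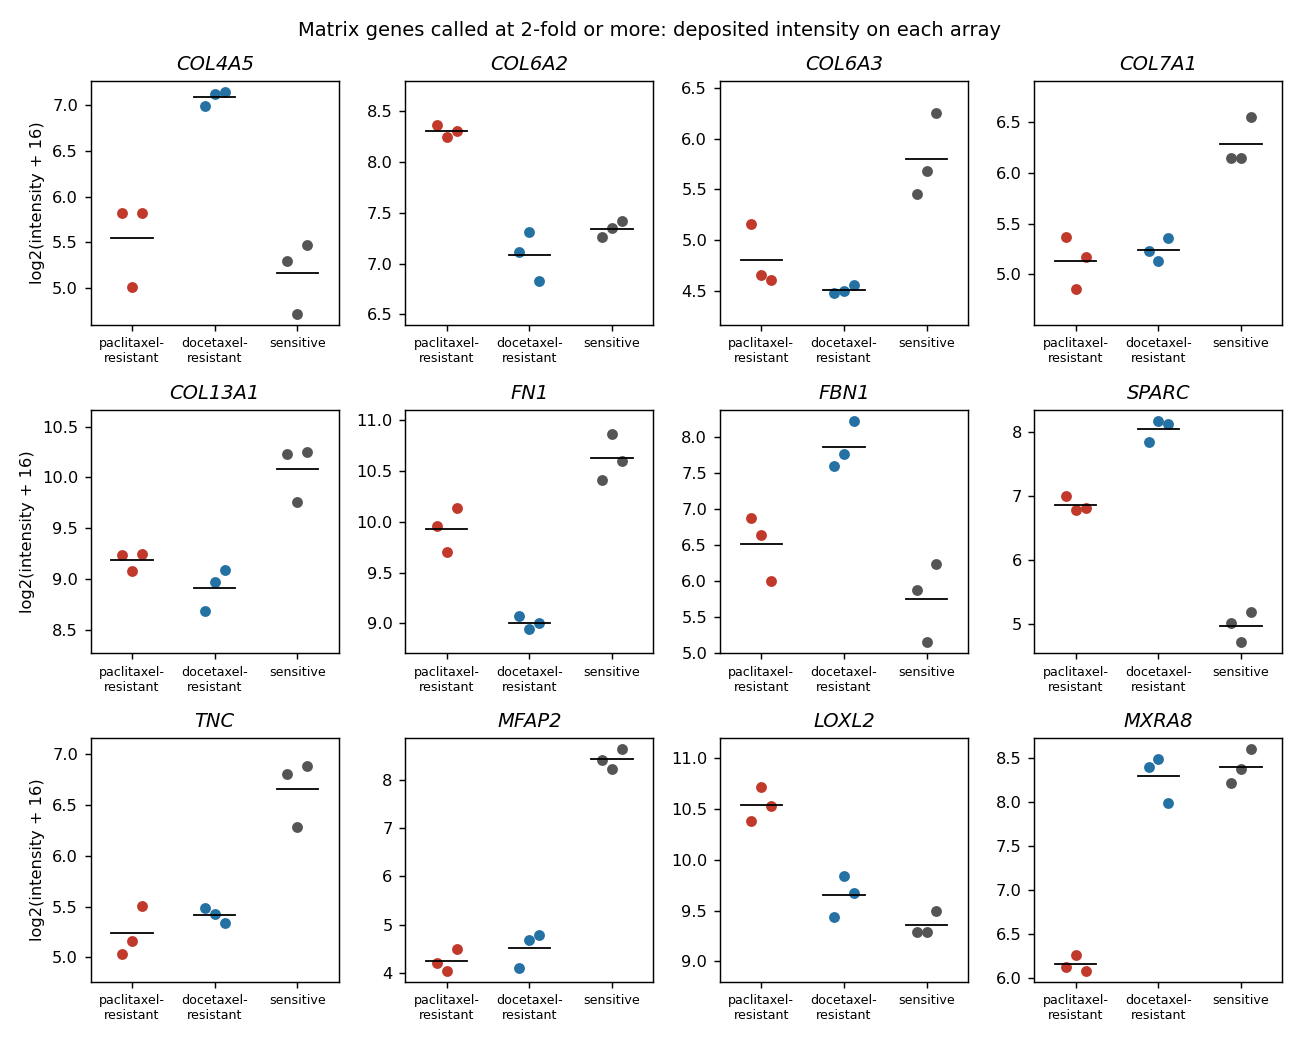
Each panel shows 1 of the 12 matrix genes called with a difference of at least 2-fold, as log2(intensity + 16) of the deposited values on all 9 arrays, with a line at each group's mean. Levels are not comparable between panels. The paclitaxel-resistant arrays stand alone as highest for COL6A2 and LOXL2 and as lowest for MXRA8, and the docetaxel-resistant arrays as highest for COL4A5, FBN1 and SPARC.

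Among the matrix genes the greatest fall was that of MFAP2, which encodes a small glycoprotein of fibrillin microfibrils. Its intensity was 2.51, 0.49 and 6.55 in paclitaxel-resistant cells and 1.17, 9.73 and 11.4 in docetaxel-resistant cells, against 328, 283 and 385 in sensitive cells. All 6 resistant arrays lay near 0, far below all 3 sensitive arrays, and the resistant lines overlapped. MFAP2 fell by 4.22 ± 0.19 (SE) on the log2 scale in the paclitaxel-resistant line (limma adjusted p = 8.5e-08) and by 3.97 ± 0.19 in the docetaxel-resistant line (limma adjusted p = 9.86e-08). The size depends on the offset, since an offset of 1 gave -6.51 and -5.70, and it was read from 1 probe set.

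SPARC, a collagen-binding matricellular glycoprotein, rose most of the 45 measured genes of the list in either line. Its intensity was 112, 93.9 and 96.3 in paclitaxel-resistant cells and 215, 275 and 263 in docetaxel-resistant cells, against 16.2, 10.2 and 20.3 in sensitive cells. The groups did not overlap, with the docetaxel-resistant arrays highest, the paclitaxel-resistant arrays between and the sensitive arrays lowest. SPARC rose by 1.90 ± 0.14 in the paclitaxel-resistant line (limma adjusted p = 6.68e-06) and by 2.99 ± 0.14 in the docetaxel-resistant line (limma adjusted p = 9.86e-08). Between the lines it was lower in paclitaxel-resistant cells, by -1.09 ± 0.14 (limma adjusted p = 0.00222). The other SPARC probe set rose in both lines as well, by 1.56 and 2.35, and its difference between the lines, -0.79, was not called (limma adjusted p = 0.0572 when this probe set stood for the gene).

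The 250 bases before the start of SPARC and of MFAP2 are shown because these had the largest rise and fall of the 45 measured genes of the list. They are RefSeq sequences of GRCh38.p14, both from the minus strand and written 5′ to 3′. SPARC lies at chr5:151686916-151687165, and MFAP2 at chr1:16981584-16981833. Capitals mark GGAGGA, the core of a purine-rich box known from the bovine SPARC promoter, and TGAGTCA, the letters bound by AP-1 factors.
SPARC: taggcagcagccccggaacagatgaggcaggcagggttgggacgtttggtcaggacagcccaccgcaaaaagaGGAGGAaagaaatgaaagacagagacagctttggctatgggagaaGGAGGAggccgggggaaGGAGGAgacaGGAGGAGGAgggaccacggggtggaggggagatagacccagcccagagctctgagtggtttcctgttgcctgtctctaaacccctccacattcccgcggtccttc
MFAP2: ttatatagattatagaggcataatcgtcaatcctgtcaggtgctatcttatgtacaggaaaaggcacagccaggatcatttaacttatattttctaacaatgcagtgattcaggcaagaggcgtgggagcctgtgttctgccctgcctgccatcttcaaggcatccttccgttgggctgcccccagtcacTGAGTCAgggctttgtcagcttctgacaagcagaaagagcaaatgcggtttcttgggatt
Both motifs were searched on either strand and were chosen after these sequences had been read. GGAGGA occurred 5 times in the SPARC window, some of them overlapping, and in 31.2% of 27305 promoters of the same length. TGAGTCA occurred 1 time in the MFAP2 window, which lacked GGAGGA, and in 4.16% of all promoters. Among the 32 matrix genes with a promoter in the table, 19 held GGAGGA and 2 held TGAGTCA. A match is a run of letters and not a binding site.

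MXRA8, a cell-surface protein with immunoglobulin domains, was low in the paclitaxel-resistant line alone. Its intensity was 53.9, 60.9 and 52.0 in paclitaxel-resistant cells and 319.6, 343 and 238 in docetaxel-resistant cells, against 282, 315 and 372 in sensitive cells. The paclitaxel-resistant arrays lay below all others, and the docetaxel-resistant and sensitive arrays overlapped. MXRA8 fell by 2.29 ± 0.20 in the paclitaxel-resistant line against sensitive cells (limma adjusted p = 1.99e-05), and its difference from the docetaxel-resistant line was -2.06 ± 0.20 (limma adjusted p = 0.000293). In the docetaxel-resistant line the difference was -0.23, with a 95% interval from -0.67 to 0.21 (limma adjusted p = 0.469).

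Fibronectin and tenascin-C, both large adhesive glycoproteins, fell in both lines. FN1, which links integrins to collagen, had 978, 815 and 1110 in paclitaxel-resistant cells and 522, 477 and 497 in docetaxel-resistant cells, against 1346, 1849 and 1529 in sensitive cells. The groups did not overlap, with the docetaxel-resistant arrays lowest and the sensitive arrays highest. FN1 fell by 1.69 ± 0.19 in the docetaxel-resistant line (limma adjusted p = 0.000142) and by 0.69 ± 0.19 in the paclitaxel-resistant line (limma adjusted p = 0.0252), and was higher in paclitaxel- than in docetaxel-resistant cells by 1.00 ± 0.19 (limma adjusted p = 0.0244). Of its 6 probe sets 5 were called lower in each line and 4 higher between the lines. The call in the paclitaxel-resistant line ended without sensitive replicate 2 or 3 or paclitaxel-resistant replicate 1 or 2, with adjusted p from 0.0597 to 0.0982. The call between the lines ended without docetaxel-resistant replicate 2 or 3 or any paclitaxel-resistant replicate, with adjusted p from 0.0535 to 0.109. With probe sets that may match several transcripts or genes left out, only 1 probe set of FN1 remained, and it gave -0.15 in the paclitaxel-resistant line, -0.14 in the docetaxel-resistant line and -0.01 between them, none called. That probe set read 4.77 to 11.7 on all 9 arrays, under the intensity of 16, and so could hardly show a change.

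TNC, which encodes tenascin-C, had 16.9, 19.9 and 29.6 in paclitaxel-resistant cells and 29.0, 27.1 and 24.4 in docetaxel-resistant cells, against 95.6, 62.0 and 102 in sensitive cells. All resistant arrays lay below all sensitive ones, and the resistant lines overlapped. It fell by 1.5 ± 0.16 in the paclitaxel-resistant line (limma adjusted p = 6.12e-05) and by 1.36 ± 0.16 in the docetaxel-resistant line (limma adjusted p = 0.000142). The other TNC probe set read 2.54 to 8.2 on all 9 arrays, too dim to show a change.

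Among the other matricellular genes, THBS2 and POSTN differed by -0.28 to 0.06 from sensitive cells without a call. THBS1, encoding thrombospondin-1, which binds cells and latent TGF-beta, had -0.57 in the paclitaxel-resistant line (limma adjusted p = 0.0558) and -0.43 in the docetaxel-resistant line (limma adjusted p = 0.151). The THBS1 value in the paclitaxel-resistant line became a call without sensitive replicate 2 (-0.73, adjusted p = 0.0263) or docetaxel-resistant replicate 3 (-0.57, adjusted p = 0.0375). Counting other changes of the processing, such as median centring or the mean of probe sets, it was a call in 8 of 20 alternatives. In the docetaxel-resistant line THBS1 was a call in 2 of 20. A different 1 of its 5 probe sets was called lower in both lines, at -0.91 and -0.90. FSTL1, a secreted follistatin-like glycoprotein related to SPARC, rose by 0.64 ± 0.14 in the paclitaxel-resistant line (limma adjusted p = 0.00764) and by 0.80 ± 0.14 in the docetaxel-resistant line (limma adjusted p = 0.00222). Its intensity was 545 to 692 in paclitaxel-resistant and 696 to 824 in docetaxel-resistant cells, above the 297 to 494 of sensitive cells.

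Of 6 basement membrane collagens measured, 1 was lower and none higher in the paclitaxel-resistant line, where 21.6% of all genes were called. In the docetaxel-resistant line 2 were higher and 2 lower, where 21.0% of all genes were called. COL4A5 encodes a type IV collagen chain that assembles into networks with the chain encoded by COL4A6 in some basement membranes. COL4A5 had 40.6, 16.3 and 40.5 in paclitaxel-resistant cells and 112, 123 and 126 in docetaxel-resistant cells, against 23.2, 10.3 and 28.2 in sensitive cells. The docetaxel-resistant arrays lay above all others, and the paclitaxel-resistant and sensitive arrays overlapped. COL4A5 rose by 1.80 ± 0.23 in the docetaxel-resistant line (limma adjusted p = 0.00028) and was -1.44 ± 0.23 in the paclitaxel- against the docetaxel-resistant line (limma adjusted p = 0.00922). Against sensitive cells the paclitaxel-resistant line differed by 0.36 (95% interval -0.15 to 0.86). The call between the lines ended without docetaxel-resistant replicate 2 (adjusted p = 0.0518).

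COL4A6 had 20.03, 13.2 and 5.68 in paclitaxel-resistant cells and 34, 33.1 and 37.5 in docetaxel-resistant cells, against 12.3, 3.40 and 11.6 in sensitive cells. Again only the docetaxel-resistant arrays stood above the rest, at intensities below the medians of their arrays. COL4A6 rose by 0.98 ± 0.20 in the docetaxel-resistant line (limma adjusted p = 0.00467), a size that depends on the offset, since an offset of 1 gave 1.88. Its difference between the lines, -0.79 ± 0.20, was not called (limma adjusted p = 0.0712) unless sensitive replicate 2 was left out (adjusted p = 0.039). The other probe sets of COL4A6 read 6.27 to 17.9 on all arrays and gave 0.00 and -0.11 in the docetaxel-resistant line, and the mean over its 3 probe sets gave 0.29 without a call (adjusted p = 0.0914).

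COL4A5 and COL4A6 lie head to head on the X chromosome, with starts 380 bases apart, so that the windows of 250 bases before their starts share 121 bases. These windows are shown because both genes rose in the docetaxel-resistant line. They are RefSeq sequences of GRCh38.p14, COL4A5 from the plus strand at chrX:108439588-108439837 and COL4A6 from the minus strand at chrX:108439459-108439708, written 5′ to 3′. Capitals mark CCAAT or its reverse complement ATTGG, and GGAGGA.
COL4A5: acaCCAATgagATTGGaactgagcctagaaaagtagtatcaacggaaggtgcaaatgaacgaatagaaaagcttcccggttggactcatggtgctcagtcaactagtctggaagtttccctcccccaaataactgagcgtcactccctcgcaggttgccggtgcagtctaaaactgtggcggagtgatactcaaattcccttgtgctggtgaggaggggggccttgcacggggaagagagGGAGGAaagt
COL4A6: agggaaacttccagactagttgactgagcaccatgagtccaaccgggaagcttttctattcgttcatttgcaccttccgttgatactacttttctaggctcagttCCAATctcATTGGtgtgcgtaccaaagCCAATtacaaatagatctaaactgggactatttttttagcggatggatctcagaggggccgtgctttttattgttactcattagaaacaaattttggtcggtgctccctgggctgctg
The COL4A5 window held CCAAT on either strand 2 times and the COL4A6 window 3 times, and a promoter had it at least 1 time in 33.0% of all cases and in 11 of the 32 matrix genes. TATAAA and GGGCGG, the letters of a TATA box and an SP1 box, were in neither window and occurred in 11.1% and 42.3% of all promoters. GC content was 51.2% for COL4A5 and 44% for COL4A6, beside a median of 58.0%. The nearest measured genes on either side, ATG4A and IRS4, were not called in any comparison, with differences from -0.10 to 0.21.

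COL4A1 and COL4A2, the ubiquitous type IV chains, also lie head to head, on chromosome 13, and neither was called. COL4A1 differed by 0.03 in the paclitaxel-resistant and 0.30 in the docetaxel-resistant line, and COL4A2 by -0.05 and 0.04. COL7A1, whose type VII collagen forms the anchoring fibrils under epithelia, had 25.2, 12.95 and 20.1 in paclitaxel-resistant cells and 21.6, 19.1 and 25.1 in docetaxel-resistant cells, against 55.0, 54.6 and 77.8 in sensitive cells. All resistant arrays lay below all sensitive ones. COL7A1 fell by 1.25 ± 0.15 in the paclitaxel-resistant line (limma adjusted p = 0.000175) and by 1.17 ± 0.15 in the docetaxel-resistant line (limma adjusted p = 0.00027), and both of its probe sets were called lower in each. COL18A1, the source of the fragment endostatin, fell by 0.55 ± 0.16 in the docetaxel-resistant line (limma adjusted p = 0.0299). In the paclitaxel-resistant line it had -0.46 (limma adjusted p = 0.0631), a call without docetaxel-resistant replicate 3 (adjusted p = 0.0338). The COL18A1 call ended without sensitive replicate 2 or 3 or docetaxel-resistant replicate 2 or 3, with adjusted p from 0.0617 to 0.125.

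Type VI collagen forms beaded filaments from chains encoded by COL6A1, COL6A2 and COL6A3, and in the paclitaxel-resistant line the chains went in different directions. COL6A2 had 314, 287 and 301 in paclitaxel-resistant cells and 123, 143 and 97.6 in docetaxel-resistant cells, against 138, 147 and 155 in sensitive cells. The paclitaxel-resistant arrays were highest. In deposited intensity 1 docetaxel-resistant array lay within the sensitive range while the other docetaxel-resistant arrays lay below it. After normalization all docetaxel-resistant arrays lay below all sensitive ones for COL6A2. COL6A2 rose by 0.92 ± 0.18 in the paclitaxel-resistant line (limma adjusted p = 0.00337) and was higher there than in docetaxel-resistant cells by 1.34 ± 0.18 (limma adjusted p = 0.00264). In docetaxel-resistant cells it had -0.43 against sensitive cells (limma adjusted p = 0.116).

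COL6A1, the neighbour of COL6A2 on chromosome 21, had 1118, 1350 and 1360 in paclitaxel-resistant cells and 709, 827 and 645 in docetaxel-resistant cells, against 559, 700.3 and 722 in sensitive cells. The paclitaxel-resistant arrays lay above all others, and the docetaxel-resistant and sensitive arrays overlapped. COL6A1 rose by 0.92 ± 0.19 in the paclitaxel-resistant line (limma adjusted p = 0.00544) and was higher than in docetaxel-resistant cells by 0.86 ± 0.19 (limma adjusted p = 0.0453). It had 0.06 in the docetaxel-resistant line. Its 8 probe sets ran from -0.57, called lower, to 0.92 in the paclitaxel-resistant line, and their mean gave 0.10 without a call. The probe set with -0.57 read 1.87 to 18.8 over the 9 arrays and 2 more read 5.45 to 23.9, near the floor. The probe set that stood for the gene read 559 or more. The remaining probe sets had group means from 26.8 to 146. They gave 0.53, 0.46, -0.06 and -0.17 in the paclitaxel-resistant line, none called. Only 1 of the 8 COL6A1 probe sets was thus called higher there. The COL6A1 difference between the lines was not called without sensitive replicate 3, without any docetaxel-resistant replicate or without any paclitaxel-resistant replicate, with adjusted p from 0.0573 to 0.185. The second probe set of COL6A2 gave 0.23 in the paclitaxel-resistant line and 0.51 between the lines, neither called. PCBP3 and FTCD, the nearest measured genes on either side of the pair, were not called in any comparison.

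COL6A3, on chromosome 2, had 19.7, 9.26 and 8.36 in paclitaxel-resistant cells and 6.33, 6.59 and 7.51 in docetaxel-resistant cells, against 27.9, 35.2 and 60.2 in sensitive cells. All resistant arrays lay below all sensitive ones, near the low end of the array. It fell by 1.05 ± 0.19 in the paclitaxel-resistant line (limma adjusted p = 0.00261) and by 1.36 ± 0.19 in the docetaxel-resistant line (limma adjusted p = 0.000563). With an offset of 1 these were -1.74 and -2.49.

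**Figure D3:**
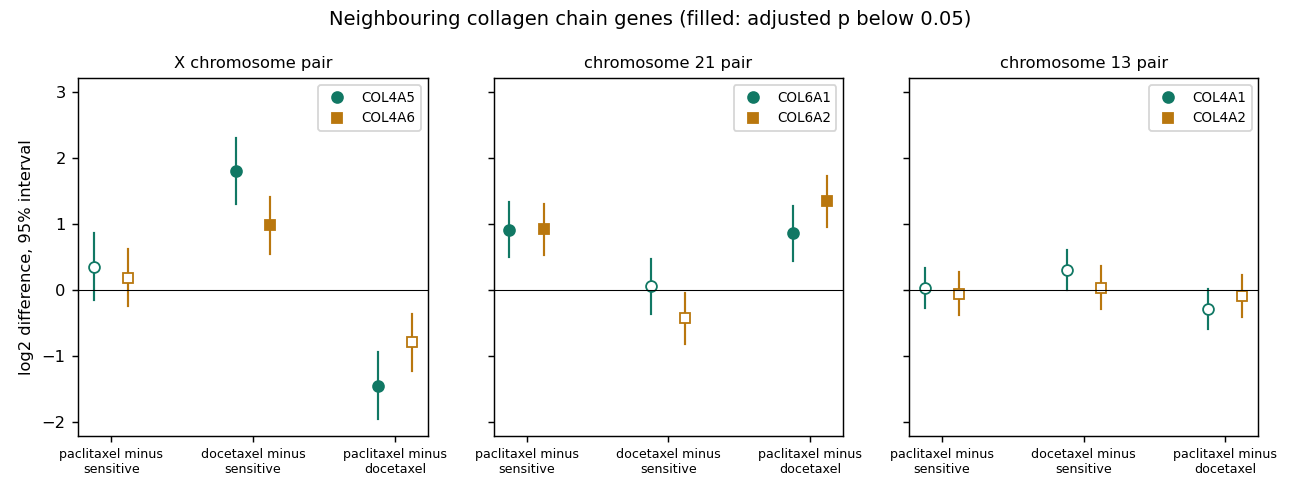
The plot gives the log2 difference with its 95% interval for 3 pairs of neighbouring collagen genes in the 3 comparisons, filled where the adjusted p was below 0.05. The X chromosome pair was higher in the docetaxel-resistant line, the chromosome 21 pair in the paclitaxel-resistant line, and the chromosome 13 pair was not called in any comparison.

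COL13A1, a transmembrane collagen of cell adhesion sites, fell in both lines. Its intensity was 588, 526 and 591 in paclitaxel-resistant cells and 395, 486 and 529 in docetaxel-resistant cells, against 1181, 847 and 1204 in sensitive cells. All resistant arrays lay below all sensitive ones. COL13A1 fell by 0.89 ± 0.13 in the paclitaxel-resistant line (limma adjusted p = 0.000763) and by 1.24 ± 0.13 in the docetaxel-resistant line (limma adjusted p = 9.61e-05), and its 3 probe sets were all called lower in each. COL8A1 and COL16A1 had differences from -0.20 to 0.34 and were not called.

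The fibrillar collagens gave the fewest calls of the collagen groups. COL1A1, COL1A2, COL3A1, COL5A2 and COL11A1 differed by -0.19 to 0.03 from sensitive cells in either line, none called. In the probe sets used, COL3A1 read 9.65 to 18.8 and COL11A1 2.76 to 19.6 over the 9 arrays. Both lay around the intensity of 16 and could hardly show a change, and COL5A2 was also dim, at 11.6 to 33.4. COL1A1, a chain of type I collagen, had 74.7, 123 and 89.7 in paclitaxel-resistant cells and 103, 106 and 112 in docetaxel-resistant cells, against 126, 85.6 and 91.4 in sensitive cells. The 3 groups overlapped, and the 95% interval of its difference ran from -0.58 to 0.29 in the paclitaxel-resistant line and from -0.54 to 0.33 in the docetaxel-resistant line. COL5A1, which sets the diameter of type I fibrils, fell by 0.47 ± 0.15 in the docetaxel-resistant line (limma adjusted p = 0.0438) and had -0.42 in the paclitaxel-resistant line (limma adjusted p = 0.0664). That call sat at the threshold: leaving out any array other than paclitaxel-resistant replicate 1 or 3 ended it, with adjusted p from 0.0537 to 0.114. When probe sets were tested singly, all 3 of its probe sets were called lower in the docetaxel-resistant line, and 2 of them also in the paclitaxel-resistant line, at -1.0 (limma adjusted p = 0.00806) and -0.81 (limma adjusted p = 0.00293).

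Of the 11 microfibril and elastic fibre genes, 3 were lower and none higher in the paclitaxel-resistant line, and 3 lower and 1 higher in the docetaxel-resistant line, where 21.6% and 21.0% of all genes were called. FBN1 encodes fibrillin-1, the backbone of the microfibrils on which the product of MFAP2 sits. It had 101, 84.0 and 48.2 in paclitaxel-resistant cells and 178, 202 and 284 in docetaxel-resistant cells, against 42.8, 19.5 and 59.7 in sensitive cells. The docetaxel-resistant arrays lay above all others, and the paclitaxel-resistant and sensitive arrays overlapped. FBN1 rose by 1.98 ± 0.27 in the docetaxel-resistant line (limma adjusted p = 0.000414), had 0.71 ± 0.27 in the paclitaxel-resistant line (limma adjusted p = 0.0844), and was -1.27 ± 0.27 in the paclitaxel- against the docetaxel-resistant line (limma adjusted p = 0.0346). Both of its probe sets gave the same calls. The call between the lines ended when any 1 of the 6 resistant arrays was left out, with adjusted p from 0.0573 to 0.13. In the paclitaxel-resistant line FBN1 became a call without sensitive replicate 3 (0.92, adjusted p = 0.0469) or without paclitaxel-resistant replicate 3 (0.95, adjusted p = 0.0333).

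LTBP2, a microfibril protein of the latent TGF-beta binding family, fell by 0.76 ± 0.15 in the paclitaxel-resistant line (limma adjusted p = 0.00399). It had 58.1 to 63.4 there, 84.7 to 88.6 in docetaxel-resistant cells and 88.7 to 122 in sensitive cells. Its value in the docetaxel-resistant line was -0.43 (limma adjusted p = 0.0644), which became a call without sensitive replicate 1 (-0.56, adjusted p = 0.0213). The fibulins were closer to the threshold. FBLN1 fell by 0.55 ± 0.14 in the docetaxel-resistant line (limma adjusted p = 0.0149; adjusted p = 0.0523 without sensitive replicate 3). EFEMP2, needed for elastic fibre assembly, fell by 0.52 ± 0.16 in the docetaxel-resistant line (limma adjusted p = 0.0373), and EFEMP1 by 0.52 ± 0.16 in the paclitaxel-resistant line (limma adjusted p = 0.0424). The EFEMP2 call ended without sensitive replicate 1 or 2, any docetaxel-resistant replicate or paclitaxel-resistant replicate 3, with adjusted p from 0.0514 to 0.133. For EFEMP1 it ended without any array other than sensitive replicate 2 or docetaxel-resistant replicate 1, with adjusted p from 0.0502 to 0.128. FBN2, FBLN5, MFAP4, MFAP5 and LTBP1 had differences from -0.38 to 0.33 and no call, although FBN2 was called in the docetaxel-resistant line without docetaxel-resistant replicate 1 (-0.50, adjusted p = 0.0478).

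The lysyl oxidases differed among themselves. LOXL2, which oxidises collagen IV among other substrates, had 1319, 1664 and 1458 in paclitaxel-resistant cells and 679, 902 and 798 in docetaxel-resistant cells, against 608, 609 and 706 in sensitive cells. The paclitaxel-resistant arrays lay above all others, while 1 docetaxel-resistant array lay within the sensitive range in deposited intensity. After normalization all docetaxel-resistant arrays lay above all sensitive ones for LOXL2. LOXL2 rose by 1.15 ± 0.16 in the paclitaxel-resistant line (limma adjusted p = 0.000398) and was higher than in docetaxel-resistant cells by 0.93 ± 0.16 (limma adjusted p = 0.0117). In docetaxel-resistant cells it had 0.22 against sensitive cells (95% interval -0.12 to 0.56). The call between the lines ended without docetaxel-resistant replicate 1 (adjusted p = 0.0604) or paclitaxel-resistant replicate 2 (0.0584) or 3 (0.0527).

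LOXL1, which acts in elastic fibre assembly, rose in the docetaxel-resistant line by 0.95 ± 0.18 (limma adjusted p = 0.00286), at 236 to 333 there against 89.5 to 139 in sensitive cells. In the paclitaxel-resistant line it had 135 to 171 and a difference of 0.25 (limma adjusted p = 0.379). The difference between the lines, -0.70 ± 0.18, was not called (limma adjusted p = 0.0727). LOX, the founding member of the family, fell by 0.74 ± 0.21 in the paclitaxel-resistant line (limma adjusted p = 0.0243) and had -0.56 in the docetaxel-resistant line (limma adjusted p = 0.078). The LOX call ended without sensitive replicate 2 or 3 or any paclitaxel-resistant replicate, with adjusted p from 0.0504 to 0.094, and without sensitive replicate 1 the docetaxel-resistant line was called too, at -0.84 (adjusted p = 0.00218). Of the other LOX probe sets, 1 was called lower in the paclitaxel-resistant line and 1 had 0.70 in the paclitaxel-resistant line without a call.

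None of the 5 proteoglycan genes was called in any comparison. BGN, DCN, VCAN, SPOCK1 and LUM differed by -0.17 to 0.30 from sensitive cells, and LUM, encoding lumican, read at most 4 on any array. In all, 22 matrix genes were called in no comparison, 15 of them below the median gene in mean level, as were 23 of all 45. The share of all genes called in no comparison is not given here. The differences of these 22 from sensitive cells ran from -0.57 to 0.34. The bound of a 95% interval farthest from 0 over the 3 comparisons was -0.998, for THBS1 in the paclitaxel-resistant line.

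A call in 1 line only is not by itself a difference between the lines. COL6A1, COL6A2, LOXL2 and MXRA8, called in the paclitaxel-resistant line only, and COL4A5 and FBN1, called in the docetaxel-resistant line only, were also called in the test between the lines. SPARC and FN1, which moved in both lines, were called there too. For LOX, LTBP2 and EFEMP1, called in the paclitaxel-resistant line only, and for COL4A6, COL5A1, COL18A1, FBLN1, EFEMP2 and LOXL1, called in the docetaxel-resistant line only by the probe set that stood for the gene, a difference between the lines was not shown.

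**Figure D4:**
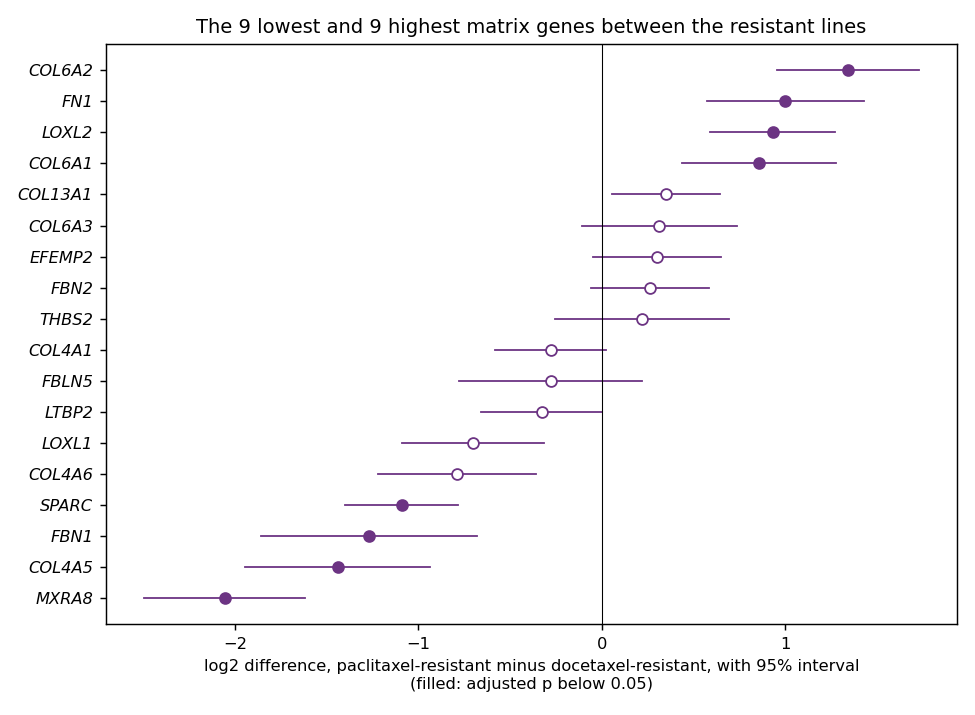
The plot gives the log2 difference between paclitaxel- and docetaxel-resistant lines with its 95% interval for the 9 highest and 9 lowest matrix genes, filled where the adjusted p was below 0.05. COL6A2 had the highest difference, 1.34, and MXRA8 the lowest, -2.06.

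Genes that modify and secrete collagen were set beside the structural genes. Of 22 measured, 5 were called higher and 1 lower in each resistant line, and 1 was lower between the lines, where 21.6%, 21.0% and 1.96% of all genes were called. FKBP10, a prolyl isomerase of the endoplasmic reticulum that serves procollagen, rose by 1.91 ± 0.21 in the paclitaxel-resistant line (limma adjusted p = 8.63e-05) and by 2.06 ± 0.21 in the docetaxel-resistant line (limma adjusted p = 5.87e-05). Its intensity was 49.1 to 62.1 in paclitaxel-resistant and 68.7 to 73.3 in docetaxel-resistant cells, against 0.01 to 12.5 in sensitive cells, so the size of its difference depends on the offset. P3H4, a partner of the collagen lysyl hydroxylation complex, rose by 1.22 and 1.45, and PLOD2, the lysyl hydroxylase of collagen telopeptides, by 1.11 and 0.88, in the paclitaxel- and docetaxel-resistant lines in that order. SERPINH1, the collagen chaperone HSP47, fell by 0.93 ± 0.17 in the paclitaxel-resistant line (limma adjusted p = 0.00213) and had -0.25 in the docetaxel-resistant line (limma adjusted p = 0.338).

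Among 47 other matrix genes, 9 were higher and 2 lower in the paclitaxel-resistant line, 8 higher and 2 lower in the docetaxel-resistant line, and 1 was called each way between them. Over all genes 10.8% were higher in each line, and 10.7% and 10.2% lower. FMOD, encoding the collagen-binding proteoglycan fibromodulin, rose by 2.32 ± 0.26 in the paclitaxel-resistant and by 0.98 ± 0.26 in the docetaxel-resistant line, and differed by 1.34 between the lines (limma adjusted p = 0.0226). CCN1, a matricellular protein, rose by 1.35 and 1.49, and LTBP3, of the same family as LTBP2, by 1.11 and 0.93. MATN3, a matrilin, rose by 0.68 and 1.53, with -0.85 in the paclitaxel- against the docetaxel-resistant line (limma adjusted p = 0.0184).

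Of 16 matrix receptors, 2 were higher and 1 lower in the paclitaxel-resistant line and 1 higher and 2 lower in the docetaxel-resistant line, with none called between the lines, where 21.6%, 21.0% and 1.96% of all genes were called in these comparisons. SDC2, a heparan sulphate proteoglycan of the cell surface, rose by 1.31 and 0.91, and ITGA5, the integrin chain of the fibronectin receptor, fell by 0.74 and by 0.94. ITGB1, its partner chain, rose by 1.28 ± 0.31 in the paclitaxel-resistant line (limma adjusted p = 0.0126) and had 0.77 in the docetaxel-resistant line (limma adjusted p = 0.111). CD44, the hyaluronan receptor, fell by 0.54 ± 0.17 in the docetaxel-resistant line (limma adjusted p = 0.0439).

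Of 14 measured genes of TGF-beta signalling 7 were higher and 1 lower in the paclitaxel-resistant line, where 10.8% of all genes were higher and 10.7% lower. In the docetaxel-resistant line 5 were higher and none lower, where 10.8% of all genes were higher and 10.2% lower. The signal transducers SMAD2 and SMAD3 rose by 1.14 and 0.81 in the paclitaxel-resistant and by 0.82 and 1.1 in the docetaxel-resistant line. The ligand gene TGFB2 rose by 1.2 and 1.30. TGFBR2, the type II receptor, fell by 1.27 ± 0.19 in the paclitaxel-resistant line (limma adjusted p = 0.000841) and had -0.44 in the docetaxel-resistant line (limma adjusted p = 0.136). Differences between the lists were not tested.

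**Figure D5:**
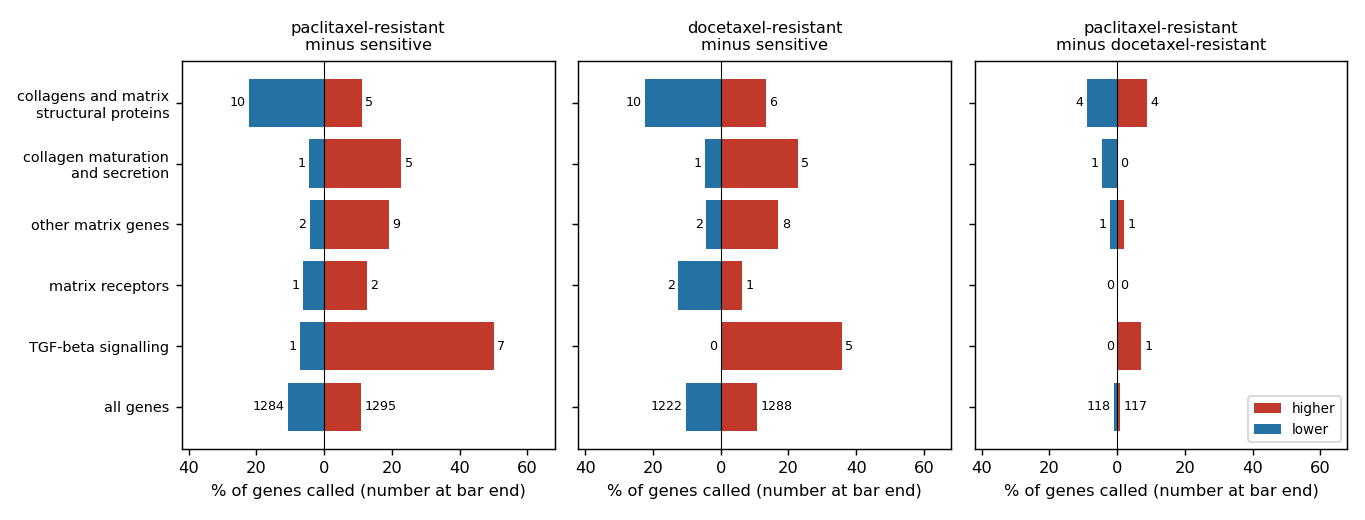
Bars show the percentage of measured genes of each list called higher (right, red) or lower (left, blue) in the 3 comparisons, with the number of genes at each bar's end and all genes at the bottom. Of the 45 matrix structural genes 10 were called lower in either line against sensitive cells, beside 10.7% of all genes in the paclitaxel-resistant and 10.2% in the docetaxel-resistant line.

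Markers of other cells were read in the same arrays. The keratin genes KRT8, KRT18 and KRT19 were bright in all groups, and the summed intensity of 10 epithelial markers was 6521 to 7150 in paclitaxel-resistant, 6395 to 7412 in docetaxel-resistant and 6561 to 7704 in sensitive cells. That sum is carried by the keratins. Of the 10, 1 was called higher in the paclitaxel-resistant line, 1 higher and 2 lower in the docetaxel-resistant line and 1 higher between the lines. Over all genes 21.6%, 21.0% and 1.96% were called in these comparisons. CLDN4, a tight junction claudin, had 207 to 232 in paclitaxel-resistant and 2.05 to 8.17 in docetaxel-resistant cells, against 201 to 211 in sensitive cells. CLDN4 fell by 3.46 ± 0.17 in the docetaxel-resistant line (limma adjusted p = 1.07e-07) and differed by 3.49 between the lines (limma adjusted p = 6.8e-07). KRT7 rose by 0.87 in the paclitaxel-resistant and 0.55 in the docetaxel-resistant line, and MUC1 fell by 0.45 in the docetaxel-resistant line. The label calls the cells epithelial, yet EPCAM, a defining epithelial marker, averaged 14.3, 14.8 and 22.1 in these groups in that order. Of 15 fibroblast and mesenchymal markers, 2 were higher and 3 lower in the paclitaxel-resistant line and 2 higher and 2 lower in the docetaxel-resistant line. Between the lines 1 was higher and 1 lower, where 21.6%, 21.0% and 1.96% of all genes were called in these 3 comparisons. The summed intensity of the 15 was 6181 to 7084 in the paclitaxel-resistant and 5465 to 5953 in the docetaxel-resistant line, below the 9523 to 11877 of sensitive cells. Of the 15, 8 averaged under an intensity of 50, so the brighter markers carry that sum. VIM, the mesenchymal intermediate filament, fell by 0.60 and 0.74, S100A4 fell by 1.37 and 3.14, and TAGLN, of contractile fibroblasts, rose by 0.67 and 1.64. At least 2-fold calls were 1 higher and 1 lower in the paclitaxel-resistant line, where 6.53% of all genes had one. That higher call was in a marker not named here. In the docetaxel-resistant line they were 2 higher and 1 lower, where 6.47% of all genes had one. The part of these markers in the matrix results was not tested. Summed blood cell markers were 1191 to 1877 and 2320 to 2786, against 1262 to 2242 in sensitive cells, with PTPRC averaging at most 9.93 in any group and LCP1 the only one called. The GAPDH 3′ minus 5′ difference, a sign of RNA integrity, was 0.094 to 0.20 in paclitaxel-resistant, 0.0067 to 0.13 in docetaxel-resistant and 0.014 to 0.039 in sensitive arrays, and its part in these results was not tested.

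Chromosomal neighbours were described for 14 of the called matrix genes, taking the nearest 2 measured genes on either side. Of 48 such neighbours, 3 were higher and 5 lower in the paclitaxel-resistant line and 4 higher and 4 lower in the docetaxel-resistant line, which is 16.7% in each, beside 21.6% and 21.0% of all genes. None of them was called between the resistant lines, where 1.96% of all genes were. Beside FBN1, EID1 rose by 1.21 and 1.62, and beside MXRA8, MRPL20 fell by 1.05 and by 1.00, in the paclitaxel- and docetaxel-resistant lines in that order.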

How the data were processed

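Total RNA, 5 µg per culture, was labelled with biotin and hybridised to Affymetrix human arrays, per the labels' protocols. The authors deposited 1 intensity per probe set and array on a linear scale, made with PLIER and Affymetrix Expression Console 1.1.2 per the submitters' processing notes. How the values were background-corrected or normalized is not stated. Of 22215 human probe sets, 19065 named 1 gene, 1043 several and 2107 none in the platform annotation, and 19053 matched the RefSeq gene table (GRCh38.p14). The probe set with the highest mean stood for each of 11963 genes. Values became log2(intensity + 16), and since array medians differed by 0.27, above a limit of 0.2, arrays were quantile-normalized. No filter on low values was applied. Arrays carry no read depth, so their number limits the precision. The model was fitted in R 4.3.3 with limma 3.58.1 (lmFit, eBayes, 3 group means, 6 residual and 5.40 prior degrees of freedom). Tests were two-sided, with Benjamini-Hochberg adjustment across the 11963 genes in each of 3 contrasts. The fit was also run on simulated data with errors independent between genes. In these data 43.4% of the variance within groups lay on 1 axis shared by genes, which that simulation did not cover. Matrix genes are all given by role: those called with a log2 difference of at least 1 on every array, COL4A6, COL6A1 and COL1A1 also, and others by differences. From each pathway list the 4 called genes of smallest adjusted p are named. COL4A6, COL6A1, COL1A1, markers and neighbouring genes were picked for naming with their values in view. The members and lists were chosen with earlier results of these data known. Alternatives changed the offset, normalization, probe set choice, gene filter, variance model, groups in the fit, replicate block and arrays left out.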

Additional observations from a re-analysis of the deposited data

Results flagged for a closer look

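For 8 matrix genes the response of the paclitaxel-resistant line differed from that of the docetaxel-resistant line in the test of that difference (limma, adjusted over 11963 genes, of which 1.96% were called). The difference, paclitaxel- minus docetaxel-resistant on the log2 scale, was higher for COL6A2 at 1.34, FN1 at 1.00, LOXL2 at 0.93 and COL6A1 at 0.86. It was lower for SPARC at -1.09, FBN1 at -1.27, COL4A5 at -1.44 and MXRA8 at -2.06. In SPARC and FN1 both lines moved the same way from sensitive cells by different amounts, and in the other 6 a call was made in 1 line only. For all 8 the 3 arrays of either line did not overlap after normalization, as in 20.4% of all genes. The 8 were picked by the test on these same arrays, so the lack of overlap adds no support to the calls. Drug, concentration and line cannot be told apart in these differences.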

How the results depend on the processing

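Of the called matrix genes, 10 of 15 in the paclitaxel-resistant line, 10 of 16 in the docetaxel-resistant line and 1 of 8 between the lines (MXRA8) kept the call in every alternative that tested them. Without probe sets that may match several transcripts (suffix _x_at or _s_at), which left 8369 genes and 30 matrix genes, the calls numbered 1495, 1431 and 110 genes and 7, 9 and 0 matrix genes in the paclitaxel, docetaxel and between-line comparisons. There COL6A1 turned to -0.062 in the paclitaxel-resistant line and FN1 to -0.0094 between the lines, neither called, the FN1 value from a probe set under an intensity of 16 on all arrays. Of the 8 matrix genes called between the lines, only COL6A1, COL6A2, FN1 and SPARC were tested there. MXRA8, COL4A5, FBN1, LOXL2 and COL13A1, each with a call kept in every alternative that tested it, have only probe sets of these suffixes and were exempt. Restricting the fit to genes at or above the median level left 5982 genes and 22 matrix genes. The calls there numbered 2295, 2232 and 314 genes and 14, 9 and 8 matrix genes in the paclitaxel, docetaxel and between-line comparisons. Between the lines, 72 genes and 2 matrix genes were called with an offset of 1, 380 genes with an offset of 64 and 143 genes without normalization. Of 9 correlations between the deviations of same-numbered replicates 3 exceeded 0.1 (range -0.45 to 0.34), too few to settle whether these replicates were paired. With the replicate block 2387 and 2291 genes and 15 and 15 matrix genes were called in the paclitaxel and docetaxel comparisons, and 139 genes and 5 matrix genes between the lines. Leaving out 1 array at a time gave 1893 to 2706, 1638 to 2591 and 78 to 294 genes and 12 to 16, 13 to 16 and 4 to 9 matrix genes in the 3 comparisons. The 1638 came without docetaxel-resistant replicate 3. Chosen after seeing the data, leaving out the arrays of lowest and highest median (sensitive replicate 2 and docetaxel-resistant replicate 3) gave 1341 genes in the docetaxel comparison and 137 between the lines. The causes were not tested beyond the fewer genes or arrays. Intensities near 0, as for MFAP2, LUM and COL6A3, hold no order and limit the sizes given.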
